A study of Mus musculus with 6 samples.

Results

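The mitochondrial ribosomal protein genes of mouse heart were compared between wild-type mice and mice that lack Mbnl1 and Mbnl2 in heart muscle cells. Members were all rows of the deposited table whose symbol begins with Mrpl or Mrps followed by a number and at most 1 further letter. This gave 78 of 24525 gene rows, 49 named for the large subunit (Mrpl) and 29 for the small subunit (Mrps). No row of the family was a pseudogene. All 78 members passed the filter on low values, and the lowest value of any member in any library was 8.58 TPM. TPM, a relative transcript abundance, scales reads by transcript length and by the library's total, so levels can be set side by side between genes.

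Mitochondrial ribosomes translate the few messenger RNAs of the mitochondrial genome, which encode core subunits of the respiratory chain and of ATP synthase. Their RNAs come from the mitochondrial genome, while every one of their proteins is encoded in the nucleus, made in the cytosol and imported. Some of these proteins have counterparts in bacterial ribosomes, and others were added in the mitochondrial lineage. The heart relies on oxidative phosphorylation, and inherited defects of several of these proteins are known in patients with cardiomyopathy.

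The study sequenced total RNA from whole hearts of mice aged 3 to 6 months, in 3 libraries titled WT (replicates 4, 5 and 6) and 3 titled DKO (replicates 7, 8 and 9). The DKO mice carried Mbnl1-/-, Mbnl2cond/cond and Myh6-Cre+/-, so that Mbnl1 is null in the body and Mbnl2 is removed where Cre is driven by Myh6 sequences, which act in cardiomyocytes. The conditional allele and the Cre are thus present in the DKO group and are not listed for the WT group. MBNL1 and MBNL2 are RNA-binding proteins that control splicing and are sequestered in myotonic dystrophy. WT and DKO stand below for the libraries so titled.

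The labels of replicate 7 disagree, since the title says DKO and the genotype tag WT. It was analysed as DKO. Its Pearson correlation with the other DKO libraries over the 14541 genes tested was 0.951 and 0.955, against 0.923 to 0.939 with the WT libraries. Not all pairs of libraries were split by group in this way. WT 4 with WT 5 stood at 0.941, below DKO 9 with WT 4 (0.942) or with WT 6 (0.944). Xist, a marker of female tissue, stood at 152 TPM in DKO 7 and 174 TPM in DKO 8 and below 1 TPM in the other 4 libraries, which instead held 163 to 179 TPM of Y-linked transcripts. Sex was therefore not balanced between the groups. Mbnl1 fell from 155 ± 8.98 to 106 ± 3.16 TPM (SD, n = 3 per group; limma, adjusted p = 0.00673), and Mbnl2 rose from 169 ± 20.1 to 237 ± 9.46 TPM (limma, adjusted p = 0.0232). The call of Mbnl2 was kept without WT 4 and lost without any of the other 5 libraries (0.0548 to 0.0777). These are levels of whole genes, and the exons that each allele lacks are not known here, so they are no check of the deletions.

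Heart muscle genes dominated all libraries: 10 cardiomyocyte markers summed to 75058 to 77482 TPM in WT and 70262 to 71034 TPM in DKO, with 0 higher and 2 lower. Of 8 fibroblast markers 4 rose (sums of 986 to 1016 TPM in WT and 1214 to 1524 TPM in DKO), and of 8 macrophage markers 5 rose (188 to 291 TPM and 413 to 560 TPM). Atrial markers varied within WT, from 390 TPM in WT 5 to 6725 TPM in WT 4, and stood at 2476 to 4191 TPM in DKO. Nppa alone held 2188, 3855 and 3789 TPM in DKO, most of each sum, and 4216, 242 and 957 TPM in WT. Its difference was positive and those of the other 5 atrial markers were negative, with 0 called. Haemoglobin took 3.83% of all TPM in WT 5, against 0.321% to 1.41% in the other 5 libraries. The haemoglobin gene Hbb-bt stood at 0 TPM in DKO 8 and 2.52 TPM in DKO 9, where Hba-a1, another haemoglobin gene, held 1115 and 1407 TPM. Hbb-bt stood at 216 TPM in DKO 7 and at 307 TPM or more in WT. Hbb-bs was also lowest in DKO 8 and DKO 9. Whether genetic background differs between the libraries was not tested. Fibroblast and macrophage sums were higher in every DKO library than in any WT library. Cardiomyocyte sums were lower in every DKO library, as were sums of 7 endothelial markers (707.4 to 812.7 TPM in WT and 619.9 to 707.0 TPM in DKO). The part of these differences in the results below was not tested.

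Of the 78 members 7 were called, a share close to that of all genes tested. Of the 7, 5 were large subunit genes lower in DKO, and the large subunit holds 49 of the 78 members. Of the 49 Mrpl genes 5 fell (Mrpl28, Mrpl55, Mrpl14, Mrpl44 and Mrpl20) and 1 rose (Mrpl33), while of the 29 Mrps genes 0 fell and 1 rose (Mrps5). A gene was called where the Benjamini-Hochberg adjusted p of limma's test, over all 14541 genes tested, was under 0.05. By that rule 10.7% of all genes were called, 6.51% higher and 4.22% lower. The called share was 12.2% of the Mrpl genes (2.04% higher, 10.2% lower) and 3.45% of the Mrps genes. Over all 78 members it was 8.97%, close to the background. An unadjusted p under 0.05 by limma was found for 20 of the 78 members (25.6%), beside 27% of all genes tested. The median log2 difference, DKO minus WT, was -0.10 over the Mrpl genes and -0.04 over the Mrps genes, beside 0.03 over all genes tested. Differences are on the log2(TPM + 1) scale. In whole hearts, fewer cells of a type and less RNA per cell cannot be told apart.

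**Figure D1:**
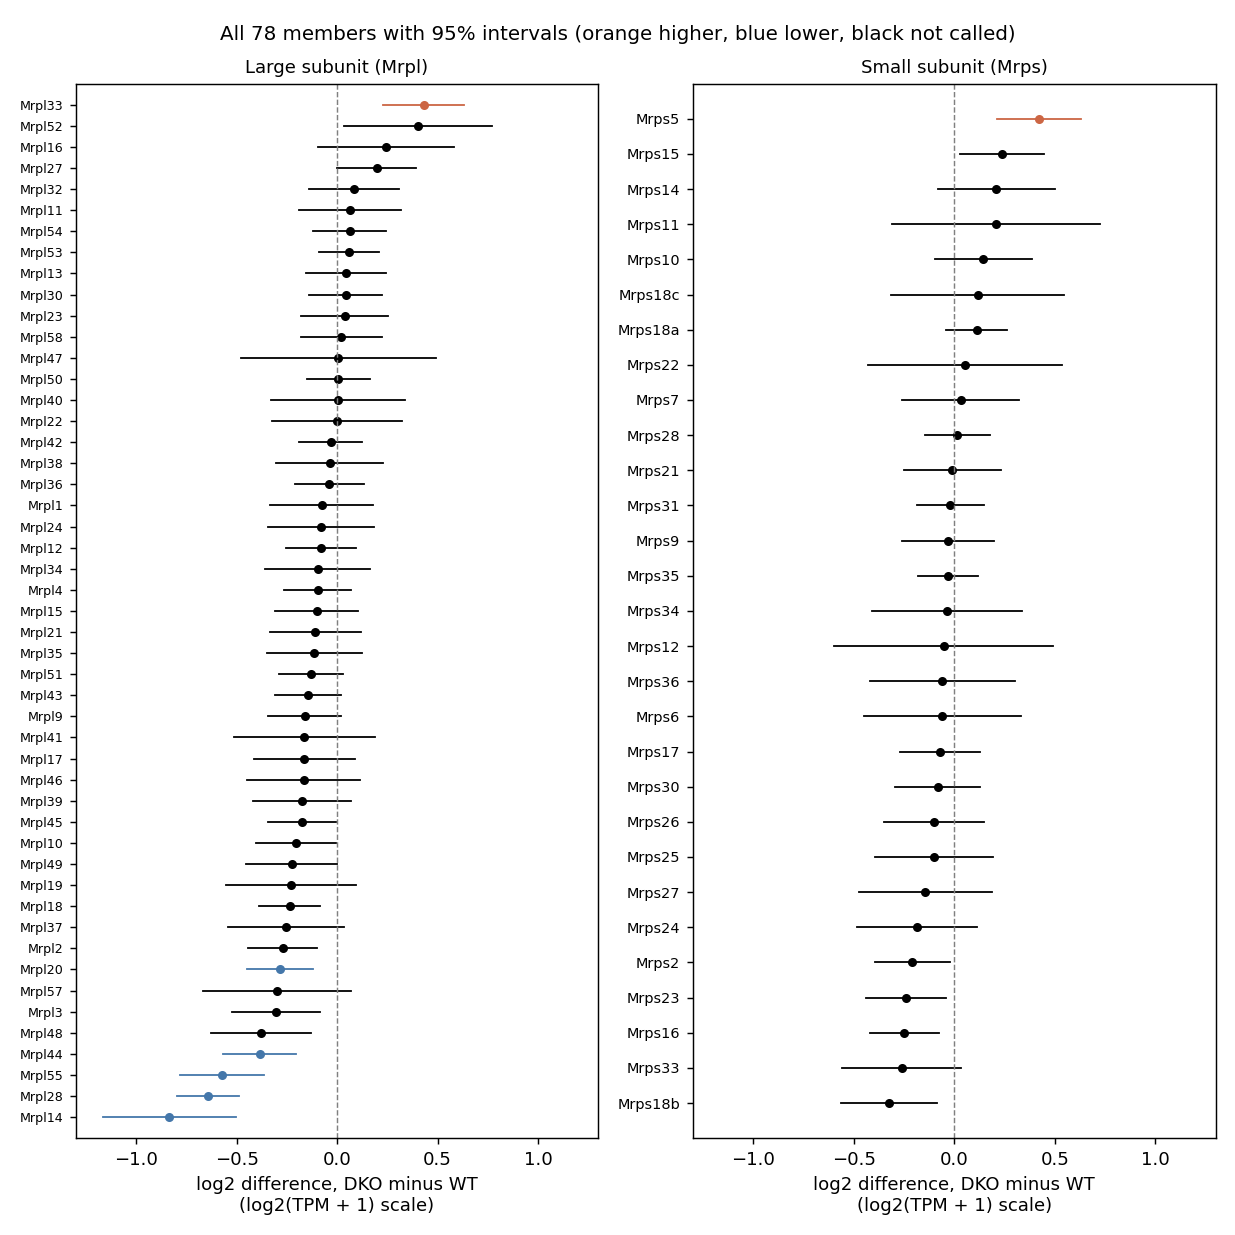
Each point is the difference of 1 member between DKO and WT on the log2(TPM + 1) scale (negative: lower in DKO), with its 95% limma interval, for 49 large subunit genes (left) and 29 small subunit genes (right). Blue marks the 5 genes called lower, orange the 2 called higher and black the rest; Mrpl14 lies farthest left at -0.84 and Mrpl33 farthest right at 0.43.

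The steadiest of the 7 calls were those of Mrpl28, Mrpl55 and Mrpl14. Mrpl28 is the mitochondrial form of bacterial ribosomal protein L28. It measured 164, 178 and 169 TPM in WT and 104, 109.7 and 113 TPM in DKO, so the lowest WT library was well above the highest DKO library. It fell by 0.64 on the log2 scale (SE 0.06; limma, adjusted p = 0.00428), to 0.639 of the WT mean.

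Mrpl55, a protein with no bacterial counterpart, measured 99.4, 94.0 and 105 TPM in WT. In DKO it measured 62.6, 73.9 and 63.8 TPM, again without overlap. It fell by 0.57 on the log2 scale (SE 0.09; limma, adjusted p = 0.0122).

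Mrpl14, which corresponds to bacterial L14 at the face of the large subunit that meets the small one, measured 126 and 145 TPM in WT 4 and WT 5 and 122 TPM in WT 6. In DKO it measured 59.7, 85.5 and 75.3 TPM. The groups did not overlap, and the fall of 0.84 on the log2 scale (SE 0.14; limma, adjusted p = 0.0158) was the largest of any member in either direction. Its annotation overlaps that of Tmem63b on the opposite strand, with which it shares 106 of its 949 exon bases. Tmem63b itself fell from 79.1 ± 5.03 to 52.7 ± 1.66 TPM (limma, adjusted p = 0.00751). The libraries keep strand, but no source used here gives the strand setting of the quantification, so the value of Mrpl14 is uncertain to that extent. In all, 26 of the 78 members overlap another coding gene.

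These 3 calls held when any 1 of the 6 libraries was left out, with limma adjusted p of 0.0155 to 0.0219 for Mrpl28, 0.0232 to 0.0470 for Mrpl55 and 0.0258 to 0.0482 for Mrpl14. They did not hold when replicate 7 was counted as WT, or with a model term for the 2 libraries with Xist. Both of those are DKO libraries, so with that term only DKO 9 is set against WT, and calls lost with it are no test of sex. The log2 differences with that term were -0.59 for Mrpl28, -0.63 for Mrpl55 and -0.79 for Mrpl14.

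Mrpl44 has a ribonuclease III-like fold, and variants of its human counterpart are known in infants with hypertrophic cardiomyopathy. It measured 70.5, 68.9 and 67.1 TPM in WT and 51.4, 56.6 and 49.6 TPM in DKO. The groups were tight and separate, and the fall was 0.39 on the log2 scale (SE 0.08; limma, adjusted p = 0.0249). Mrpl44 shares 126 of 1644 exon bases with Wdfy1 on the opposite strand, which measured 25.5 ± 6.47 TPM in WT and 23.1 ± 5.99 TPM in DKO (limma, adjusted p = 0.770).

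Mrpl20, the counterpart of a bacterial protein that binds ribosomal RNA early in assembly, measured 60.4, 63.1 and 65.3 TPM in WT. It measured 52.8, 52.2 and 49.5 TPM in DKO. This fall of 0.28 on the log2 scale (SE 0.07; limma, adjusted p = 0.0459) was the smallest of the 7 changes and the nearest to the threshold.

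Mrpl33, a small protein of the large subunit with a bacterial counterpart, went the other way. It measured 240.2, 267 and 297 TPM in WT and 356, 369 and 356 TPM in DKO. The 3 DKO libraries lay close together above all WT libraries, and the rise was 0.43 on the log2 scale (SE 0.09; limma, adjusted p = 0.0255).

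Mrps5 corresponds to bacterial S5, which lies near the messenger RNA entry of the small subunit and bears on decoding accuracy. It measured 42.6, 38.1 and 44.7 TPM in WT and 52.8, 58.6 and 57.3 TPM in DKO. The groups did not overlap, and the rise was 0.42 on the log2 scale (SE 0.09; limma, adjusted p = 0.0300).

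These 4 calls were less steady, and they too were lost with replicate 7 as WT or with the Xist term. Mrps5 and Mrpl20 lost the call whichever library was left out, with limma adjusted p of 0.0521 to 0.0969 and 0.0817 to 0.139. Mrpl44 kept it only without DKO 8 (0.0400) and Mrpl33 only without WT 6 (0.0281). All 7 changes kept their direction in each of the 16 alternatives tried.

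**Figure D2:**
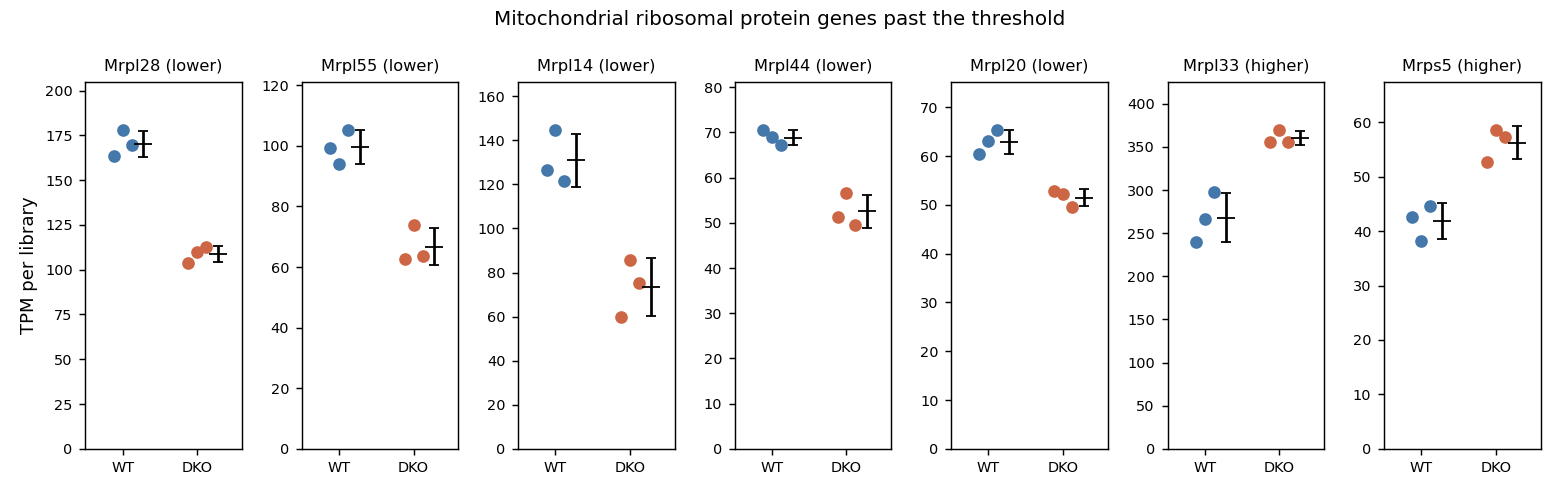
TPM of the 7 members past the threshold in each library (points; WT blue, DKO orange), with the mean and SD of the 3 libraries as a bar beside them; each vertical axis starts at 0. In every panel the 3 DKO values lie wholly below or wholly above the 3 WT values, for example 104 to 113 TPM against 164 to 178 TPM for Mrpl28.

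In the RefSeq annotation of GRCm38 the 7 genes lie apart from each other, all on the forward strand. Mrpl28 spans chr17:26123503-26126613, Mrpl14 chr17:45685722-45698495, Mrpl55 chr11:59202486-59206138 and Mrpl44 chr1:79776018-79781445. Mrpl20 spans chr4:155802878-155808831, Mrpl33 chr5:31613951-31622644 and Mrps5 chr2:127587426-127603986. The 78 members are spread over 17 chromosomes, with at most 11 on any of them.

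Many genes of mitochondrial ribosomes are known to have compact promoters bound by ETS-family factors or YY1. The start regions of the steadiest lowered genes (Mrpl28, Mrpl55 and Mrpl14) are shown with that of the raised Mrpl33 and, for comparison, Mrps21 and Mrpl49, which hold a motif and were not called. They come from RefSeq's GRCm38.p6 tables and run from 120 bases before an annotated start to the 30th base from it, 5′ to 3′ along the gene. Capitals mark the letters CCGGAAG of the ETS motif or AAGATGGC of the YY1 motif, or their reverse complement. The regions are chr17:26123383-26123532 (forward strand), chr11:59202366-59202515 (forward), chr17:45686229-45686378 (forward), chr5:31613831-31613980 (forward), chr3:95871485-95871634 (reverse) and chr19:6057726-6057875 (reverse).
Mrpl28: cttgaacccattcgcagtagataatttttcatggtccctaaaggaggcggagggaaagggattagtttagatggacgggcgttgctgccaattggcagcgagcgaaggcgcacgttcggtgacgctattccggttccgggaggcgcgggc
Mrpl55: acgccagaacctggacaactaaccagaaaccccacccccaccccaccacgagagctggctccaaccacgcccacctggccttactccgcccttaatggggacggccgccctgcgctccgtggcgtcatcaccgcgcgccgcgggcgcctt
Mrpl14: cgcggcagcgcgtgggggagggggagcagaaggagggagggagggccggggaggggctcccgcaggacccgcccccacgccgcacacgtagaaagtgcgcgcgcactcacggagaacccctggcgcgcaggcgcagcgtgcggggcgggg
Mrpl33: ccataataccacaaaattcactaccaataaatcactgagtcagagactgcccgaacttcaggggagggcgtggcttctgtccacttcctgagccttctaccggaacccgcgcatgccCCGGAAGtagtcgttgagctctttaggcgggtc
Mrps21: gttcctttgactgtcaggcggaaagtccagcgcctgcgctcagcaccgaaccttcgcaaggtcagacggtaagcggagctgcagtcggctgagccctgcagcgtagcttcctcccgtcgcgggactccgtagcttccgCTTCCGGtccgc
Mrpl49: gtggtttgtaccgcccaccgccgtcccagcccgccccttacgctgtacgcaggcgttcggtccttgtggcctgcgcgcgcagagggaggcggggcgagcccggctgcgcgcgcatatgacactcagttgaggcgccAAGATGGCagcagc
The 3 lowered genes hold neither set of letters in these windows. The window of Mrpl14 lies inside the span given for it above, so the outer start of that span was not searched. Mrpl33 holds the ETS letters across its start, Mrps21 holds them on the other strand within the transcript, and Mrpl49 holds the YY1 letters within the transcript.

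Over the longer windows of 300 bases in those tables (250 before the start to 50 after), 69 of the 78 members had an entry. The ETS letters, searched on both strands, were in 26 of the 69 (37.7%), against 18.4% of the 10881 genes tested that had an entry and 9.93% of all 27025 entries. The YY1 letters were in 12 of the 69 (17.4%), against 5.0% and 3.19%. Other motifs were searched in the same windows. An NRF1 motif was in 3 of the 69 (4.35%), against 2.15% and 1.07%. The GC box was less frequent than in the genes tested, in 34 of the 69 (49.3%) against 65.5%, with 38.2% of all entries. The CCAAT box was in 39.1% of the 69, against 42.5% and 41.1%. The TATA box was in 7.25%, against 9.39% and 15.7%. Of the 7 called members, only Mrpl33 held the ETS letters, and 0 held the YY1 letters. A match is a run of letters and not a measured binding site, and these shares were not tested.

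Some members share their start region with a neighbour. A protein-coding gene starting within 1000 bases on the opposite strand, heading away, was annotated for 19 of 78 members (24.4%), against 1346 of 13015 tested coding genes (10.3%). Of the called members this held for Mrps5, whose start lies 128 bases from that of Zfp661. Zfp661 had a log2 difference of -0.13 (limma, adjusted p = 0.749).

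Levels differed far more between members than between the groups. In WT the mean ran from 12.9 TPM for Mrpl17 to 597 TPM for Mrpl42 in the large subunit, with a median of 69.0 TPM. In the small subunit it ran from 9.88 TPM for Mrps25 to 392 TPM for Mrps21, with a median of 58.8 TPM. The order of members was nearly the same in DKO, with a Spearman rho of 0.973 over the 78 genes. This correlation is across genes within the same 6 libraries and is a description only.

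The 3 highest genes of the large subunit by WT mean were Mrpl42, Mrpl30 and Mrpl33, and of these Mrpl33 rose, as described above. Mrpl42 measured 597 ± 22.0 TPM in WT and 584 ± 35.7 TPM in DKO (SD, n = 3 per group), and Mrpl30, next in order, 338 ± 27.2 and 348 ± 13.6 TPM. Mrps21, the counterpart of bacterial S21, measured 414, 359 and 403 TPM in WT and 424, 407 and 340.4 TPM in DKO, with overlapping groups. Mrps23, next in the small subunit after Mrps21 and Mrps36, measured 156, 140.0 and 155 TPM in WT and 116, 128 and 138 TPM in DKO, without overlap (log2 difference -0.24; limma, adjusted p = 0.124). Among the lowest, Mrpl17 measured 12.9 ± 0.681 and 11.4 ± 0.653 TPM, and Mrpl19 13.6 ± 1.80 and 11.5 ± 1.20 TPM. Mrpl57 measured 19.4, 14.7 and 18.1 TPM in WT and 12.9, 12.4 and 16.6 TPM in DKO. The DKO values of Mrpl17 lay wholly below its WT values, while those of Mrpl19 and Mrpl57 overlapped with WT. Within WT, the levels of Mrpl17 and Mrpl19 overlapped each other. In the small subunit Mrps25 measured 9.88 ± 0.929 and 9.13 ± 0.656 TPM, and Mrps11 24.5 ± 6.49 and 28.2 ± 6.11 TPM. Apart from Mrpl33 none of these genes was called, with limma adjusted p of 0.124 to 0.968.

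**Figure D3:**
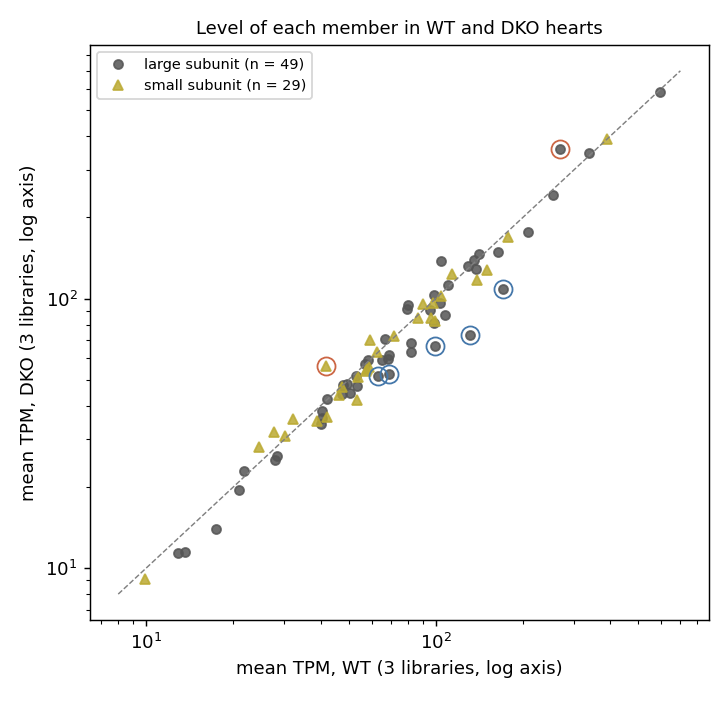
Mean TPM of each member in the 3 DKO libraries against the mean in the 3 WT libraries, both on log axes, with circles for 49 large subunit genes and triangles for 29 small subunit genes; the dashed line marks equal levels and rings mark called genes (blue lower, orange higher). Members span from about Mrps25 at 9.88 TPM to Mrpl42 at 597 TPM in WT, and most points lie near the line.

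Of the stalk proteins, which recruit translation factors to the large subunit, Mrpl10 measured 68.6 ± 1.36 TPM in WT and 59.6 ± 5.47 TPM in DKO. Its DKO values (58.2, 54.9 and 65.6 TPM) lay below the WT values (68.9, 67.1 and 69.8 TPM), with a limma adjusted p of 0.174. Mrpl11 measured 21.8 ± 0.817 and 22.9 ± 2.50 TPM. Mrpl12 measured 254 ± 7.09 and 241 ± 18.9 TPM, with overlapping groups as for Mrpl11.

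Human counterparts of Mrpl3 and Mrps22, like that of Mrpl44, are known disease genes with cardiomyopathy among their signs. Mrpl3 measured 112, 95.5 and 115 TPM in WT and 81.0, 89.6 and 89.9 TPM in DKO. Its groups did not overlap, and its log2 difference was -0.30 (SE 0.09; limma, adjusted p = 0.0847). Mrps22 overlapped widely, at 34.0, 21.8 and 34.4 TPM in WT and 32.6, 34.6 and 25.3 TPM in DKO.

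Beyond the called genes, the largest positive differences of the large subunit were those of Mrpl52 and Mrpl16. Mrpl52 measured 104 ± 18.2 TPM in WT and 138 ± 19.8 TPM in DKO (log2 difference 0.40; limma, adjusted p = 0.151). Mrpl16 measured 80.2 ± 13.5 and 94.5 ± 10.7 TPM (0.24; limma, adjusted p = 0.332).

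In the small subunit the largest negative differences were -0.33 for Mrps18b (53.3 ± 5.51 to 42.2 ± 2.89 TPM), -0.26 for Mrps33 (mean 99.7 TPM in WT and 82.2 TPM in DKO) and -0.25 for Mrps16 (139 ± 9.11 to 117 ± 4.47 TPM). The largest positive differences after Mrps5 were 0.24 for Mrps15 (59.4 ± 4.16 to 70.1 ± 5.45 TPM) and 0.21 for Mrps14 (27.6 ± 3.53 to 32.0 ± 3.10 TPM). None of the 5 was called, with limma adjusted p of 0.0746 to 0.328.

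The Mrps18 family has 3 members that sit at different places of the ribosome, and their differences were not all of the same sign. Mrps18b, a small subunit protein, measured 58.6, 47.6 and 53.7 TPM in WT and 38.9, 43.7 and 44.0 TPM in DKO, without overlap (limma, adjusted p = 0.0880). Mrps18c, the closest to bacterial S18, measured 90.1 ± 22.5 and 95.7 ± 4.47 TPM, and its WT spread came from 64.7 TPM in WT 5, without which its log2 difference of 0.12 became -0.10. Mrps18a, which structures place in the large subunit, measured 114 ± 5.15 and 123 ± 3.90 TPM. Mrps36, at 177 ± 32.5 and 169 ± 21.7 TPM, carries the name but is now known as a part of the 2-oxoglutarate dehydrogenase complex.

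For 40 of the 43 uncalled Mrpl genes and 26 of the 28 uncalled Mrps genes, the 95% limma interval lay within a change of 1.5-fold either way. The log2 intervals of the called genes Mrpl44 (-0.57 to -0.21) and Mrpl20 (-0.45 to -0.12) lay within that band too. Changes of that size are thus not excluded for the uncalled members. Negative differences were found in 34 of 49 Mrpl genes and 19 of 29 Mrps genes, beside 45.3% of all genes tested. The 3 DKO values lay wholly below the 3 WT values in 16 Mrpl and 4 Mrps genes and wholly above in 3 and 2. That made 20 of 78 members below and 5 above, beside 2012 below and 2784 above of the 14541 genes tested. In all 38.8% of Mrpl genes and 20.7% of Mrps genes had groups that did not overlap, beside 33% of all genes tested.

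The summed level of the large subunit was 4970, 4849 and 4997 TPM in WT and 4655, 4729 and 4762 TPM in DKO. All DKO sums lay below all WT sums, and the ratio of means was 0.955. The small subunit summed to 2481, 2133 and 2476 TPM in WT and to 2315, 2271 and 2283 TPM in DKO. Here WT 5 lay below every DKO library, and the ratio of means was 0.969 with it and 0.924 without it. WT 5, the library with the most haemoglobin and the lowest atrial markers, had the lowest of the 3 WT values in 21 of 29 Mrps genes and 25 of 49 Mrpl genes. What haemoglobin or atrial tissue adds to this was not tested.

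**Figure D4:**
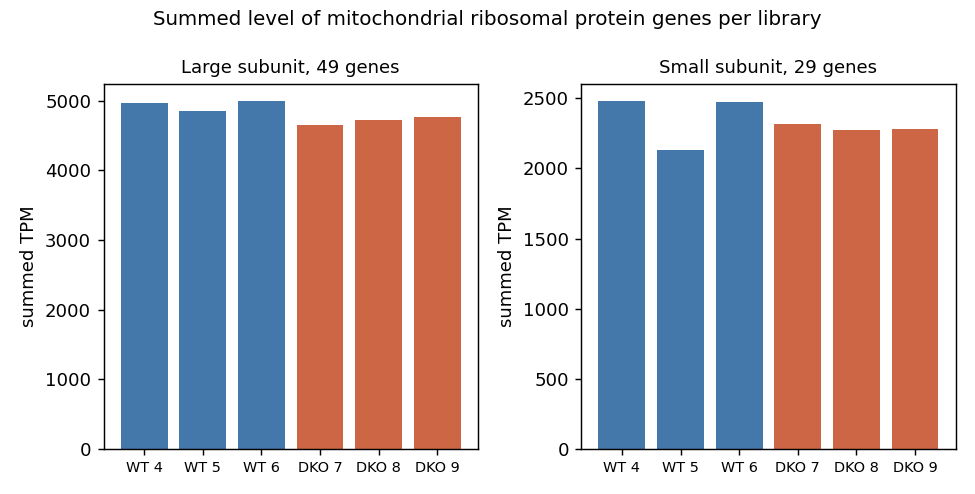
Summed TPM of 49 large subunit genes (left) and 29 small subunit genes (right) in each library, WT blue and DKO orange, with both axes from 0. The large subunit sums run from 4849 to 4997 TPM in WT and from 4655 to 4762 TPM in DKO; in the small subunit WT 5 is lowest at 2133 TPM.

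Grouping by structure and origin gave a similar account. Of 29 large subunit members with a bacterial counterpart, 3 fell and 1 rose (median log2 difference -0.10), and of 22 without one, 2 fell and 0 rose (-0.14). Of 16 small subunit members with a bacterial counterpart, 0 fell and 1 rose (0.00). Of the 10 small subunit members without one 0 were called, but 9 had negative differences (median -0.10).

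There are 5 further ribosomal proteins whose symbols do not begin with Mrp. Ptcd3, a pentatricopeptide-repeat protein at the messenger RNA entry of the small subunit, measured 144, 141 and 123 TPM in WT and 84.4, 92.9 and 90.0 TPM in DKO. It fell by 0.61 on the log2 scale (SE 0.08; limma, adjusted p = 0.00858), a size near that of Mrpl28. The GTP-binding protein Dap3 measured 33.9 ± 0.919 and 28.8 ± 2.42 TPM (limma, adjusted p = 0.151). Aurkaip1 (75.1 ± 1.94 and 70.2 ± 4.58 TPM), Gadd45gip1 (39.6 ± 6.13 and 34.8 ± 3.02 TPM) and Chchd1 (129.9 ± 7.59 and 142 ± 12.4 TPM) were not called either. With Ptcd3 counted, 1 protein of the small subunit by structure fell and 1 rose, of 30.

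Other genes of mitochondrial translation, with those of mitochondrial transcription and its regulators, had 5 lower calls and 0 higher among 78 tested. That was 6.41% lower, against the background of 4.22%. None of 28 assembly factors was called by limma (median log2 difference -0.19). An unadjusted p under 0.05 by limma was found for 6 of them (21.4%), beside 27% of all genes tested. Of 16 translation factors 3 fell (median -0.16), the 20 aminoacyl-tRNA synthetases had a median of -0.12, and of 14 transcription factors and regulators 1 fell (median -0.13).

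Rmnd1, an inner membrane protein needed for mitochondrial translation, measured 74.2, 51.9 and 68.5 TPM in WT and 27.2, 33.0 and 32.2 TPM in DKO. It fell by 1.04 on the log2 scale (SE 0.15; limma, adjusted p = 0.00986), more than any ribosomal protein of the family. Taco1, which activates translation of the cytochrome oxidase subunit encoded by mitochondrial Cox1, fell from 71.6 ± 6.13 to 44.5 ± 5.16 TPM (limma, adjusted p = 0.0146). Lrpprc, which stabilises mitochondrial messenger RNAs, fell from 142 ± 7.98 to 102 ± 9.57 TPM (limma, adjusted p = 0.0211). Tefm, the elongation factor of mitochondrial transcription, fell from 29.4 ± 2.67 to 19.8 ± 1.46 TPM (limma, adjusted p = 0.0236). The calls of Ptcd3 and Rmnd1 held without any 1 library, and Taco1 lost its call without WT 6 (0.0536). Lrpprc lost it without WT 4, WT 5 or DKO 9 (0.0592 to 0.0614), and Tefm without WT 4, WT 6, DKO 7 or DKO 9 (0.0676 to 0.0764). These 5 calls were lost with replicate 7 as WT, and with the Xist term, which sets only DKO 9 against WT.

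The ribosomal proteins of the cytosol had another pattern of values. Of 82 tested, 58 rose (70.7%, beside 6.51% of all genes tested) and 1 fell, with a median log2 difference of 0.36. Rpl3l, a paralog of Rpl3 found in striated muscle, was the 1 that fell. The number that rose ranged from 0 to 63 over the alternatives, and the median from 0.24 to 0.39. Nuclear-encoded subunits of complex I assemble with subunits that the mitochondrial ribosome makes. Of 36 genes taken by symbols named for complex I subunits, 9 fell and 0 rose (median -0.20). That was 25% lower, beside 4.22% of all genes tested. The number that fell ranged from 0 to 14. Whether these groups differ from the mitochondrial ribosomal proteins was not tested.

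**Figure D5:**
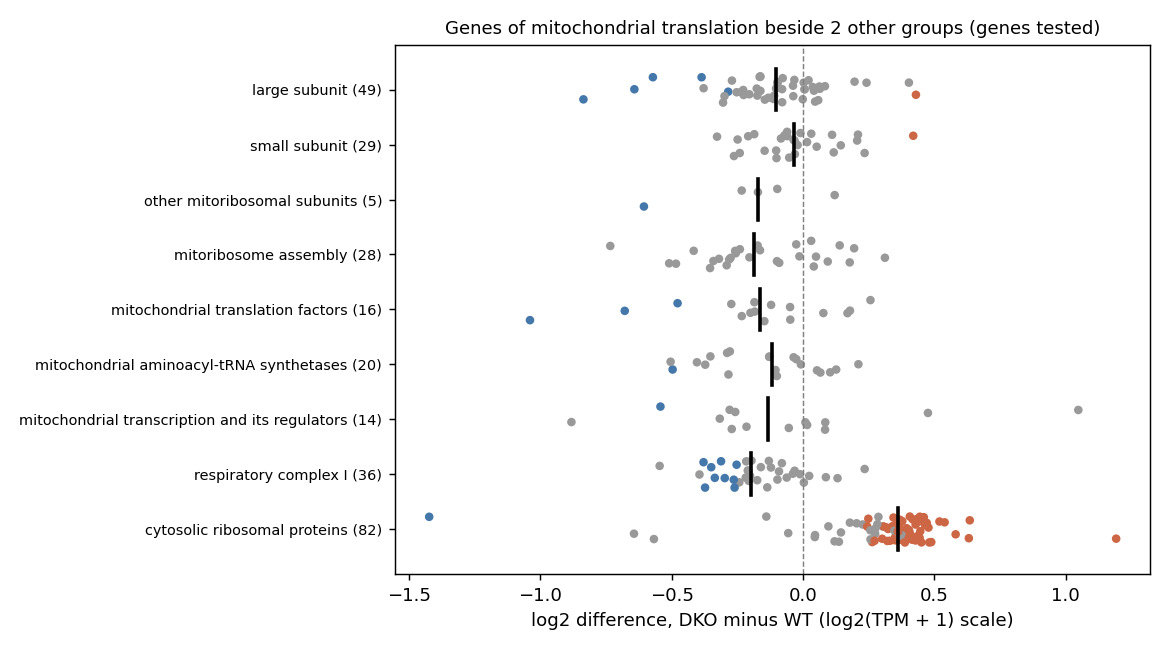
Difference of each gene between DKO and WT on the log2(TPM + 1) scale (negative: lower in DKO), by group, with the number tested in brackets; blue and orange mark genes called lower and higher, grey the rest, and the black bar is the group's median. Medians are -0.10 for the large and -0.04 for the small mitochondrial subunit, -0.20 for genes named for complex I and 0.36 for cytosolic ribosomal proteins.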

How the data were processed

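Total RNA of mouse hearts was sequenced in 3 WT and 3 DKO libraries. The authors deposited 1 table of TPM values per gene and library, and the submitters' processing notes name bcl2fastq, kallisto 0.44.0 and the mm10 build. The step from transcripts to genes and the use of strand were not given in the sources used here. TPM is relative to each library's total, so abundant RNAs shift all other values, and it keeps no counts, so depth is unknown.

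A gene entered the test where 3 or more libraries reached 1 TPM. Differences were tested with limma 3.58.1 (R 4.3.3, trended empirical Bayes) on log2(TPM + 1), with Benjamini-Hochberg adjustment over all genes and a threshold of 0.05. The test was checked on simulated data. Groups follow the titles. The labels do not tie each library to its own animal. The p-values therefore rest on the spread among these 6 libraries alone, which may be technical in part. By its Xist and Y-linked levels DKO 9 came from another animal than DKO 7 and DKO 8. For the other libraries this is unknown. An exact permutation test of 3 against 3 cannot go below 0.1. Sums over members were not tested. Members, gene lists and the rule for names were chosen with earlier results of these data known. Named were called members, the 3 highest and lowest and the 3 most different per subunit, the Mrps18 paralogs, stalk proteins, Mrpl3, Mrpl44, Mrps22, Mrps36, other ribosomal proteins and called genes of the other lists, of which 1 is not reported here. Subunit and bacterial counterpart were assigned from general knowledge of the structure. Of the 29 assembly factors listed, Mrm3 had no row under that name. Markers of lymphocytes, skeletal muscle and brown fat were at most 42.4 TPM in sum in any library, with Elovl3 at 0 in all, and of 6 smooth muscle and pericyte markers 1 rose and 1 fell. Of 7 endothelial markers 2 fell, and of 6 erythroid markers tested 1 fell.

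Alternatives were another pseudocount and filter, median-ratio and quantile scaling, TPM rescaled without haemoglobin, ribosomal RNA and short RNA, no trend, array weights, replicate 7 as WT, a term for Xist, each library left out, and subunits by structure.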

Additional observations from a re-analysis of the deposited data

How the results depend on the processing

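No called gene changed sign under any alternative. Of the named members that were not called, Mrpl11, Mrpl12, Mrpl30, Mrps18c, Mrps21, Mrps22 and Mrps36 changed sign under 1 or more alternatives, in 15 values in all, and so did Aurkaip1 with the Xist term. Without 1 library at a time, all calls numbered 622 to 877 (main 1560), Mrpl calls 3 to 4 (main 6), Mrps calls 0 to 0 (main 1), and calls in the 5 other mitochondrial lists 3 to 5 (main 6). Fewer libraries enter those fits. With replicate 7 as WT, 1 gene was called in all and 0 in Mrpl, Mrps and the other lists. With a term for the 2 libraries with Xist, 92 genes were called in all and 0 in Mrpl, Mrps and the other lists. Without a trend, 3 Mrpl and 0 Mrps genes were called. With TPM rescaled without haemoglobin, ribosomal RNA and short RNA, 10 Mrpl and 3 Mrps genes were called, and 11 in the other lists. With median-ratio scaling 3 Mrps genes and 11 in the other lists were called, and the summed large subunit ratio was 0.938 (main 0.955). With quantile scaling 11 in the other lists were called, Mrpl33 and Mrpl20 lost their call, and 51.9% of all calls were higher (main 60.6%). Median-ratio scaling added Mrpl2, Mrpl3, Mrpl48, Mrps16 and Mrps18b, all lower, and the rescaling added these and Mrpl18. Mrpl2, Mrpl48 and Mrpl18 were named after their values were seen. With subunits taken from structure, 2 Mrps genes were called, since Ptcd3 is added. The median log2 difference of the Mrpl genes stayed negative in all 16 alternatives (-0.13 to -0.06), while that of the Mrps genes ran from -0.10 to 0.01 and was positive only without WT 6. The cause of these changes was not tested. No paired analysis was possible because the groups share 0 replicate numbers. TPM keeps no counts, so how far depth limits the low members, such as Mrps25, is unknown.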

Other observations

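Among the 14 genes of mitochondrial transcription and its regulators, 9 had groups that did not overlap (64.3%, beside 33% of all genes tested), although 1 was called. In 7 of the 9 the DKO values lay below WT and in 2 above. Tfam, which packages mitochondrial DNA and starts its transcription, measured 27.6 ± 0.421 TPM in WT and 22.0 ± 1.17 TPM in DKO (limma, adjusted p = 0.0568). Ppargc1a, a coactivator of mitochondrial biogenesis, lay on the other side, at 58.1, 59.5 and 43.5 TPM in WT and 70.9, 77.2 and 75.3 TPM in DKO (limma, adjusted p = 0.0605). So did Myc, at 2.77 ± 1.54 TPM in WT and 6.42 ± 0.574 TPM in DKO (limma, adjusted p = 0.0652). Gabpa, an ETS-family factor, measured 41.7 ± 2.41 and 34.3 ± 3.45 TPM (limma, adjusted p = 0.127), and Nrf1 16.7 ± 2.03 and 16.8 ± 0.744 TPM (limma, adjusted p = 0.950). Tfam, Ppargc1a, Myc, Gabpa and Nrf1 were named after their values were seen.

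Slirp, the partner of Lrpprc in stabilising mitochondrial messenger RNAs, measured 221, 146 and 197 TPM in WT and 199, 198 and 230.3 TPM in DKO (limma, adjusted p = 0.539), while Lrpprc fell. Whether the pair differ in their response was not tested.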
